A study of Mus musculus with 10 samples.

Results

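Htra2 and 9 other genes of mitochondrial protein quality control were followed in the liver of mice carrying the S400D change in the protease HtrA2/Omi. The 10 genes were chosen by name, with earlier results of these data known, and make up 10 of the 19271 genes in the deposited table: Htra2, Oma1, Parl, Yme1l1, Afg3l2, Spg7, Lonp1, Clpp, Clpx and Pmpcb. All 10 passed the filter on low counts. Poly(A) RNA was sequenced from 1 homozygous female (S400D/S400D), 3 homozygous males (S400D/S400D), 3 heterozygous males (S400D/WT) and 3 wild-type males (WT/WT), every animal being C57BL6/N and killed at 2 months of age. The labels give S400D as the genotype of the whole animal and name no Cre driver, transgene or treatment. They give no litter, no hour of collection and no source of the WT/WT mice, and each p-value below therefore reflects the scatter among these samples alone, which may be partly technical. All 6 hepatocyte markers were found in every library. Levels are in CPM (read counts scaled to a common library size with TMM factors). These markers summed to 116343 CPM in the homozygous female and 114840 to 137320 CPM in homozygous males. They summed to 77510 to 102738 CPM in heterozygous males and 96678 to 111390 CPM in wild-type males. Pancreas and fat markers together reached at most 25.5 CPM, and erythroid markers at most 1129 CPM. Libraries held 16240441 to 17264289 expected counts. In whole liver, fewer cells of a type and less RNA per cell cannot be told apart.

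Mitochondria remove damaged or surplus proteins with proteases that differ in compartment. HtrA2 is a serine protease of the intermembrane space. Oma1, Parl and the AAA proteases sit in the inner membrane, where they cut or degrade membrane proteins and act on fusion factors and on signalling proteins. Lonp1 and the ClpXP complex degrade proteins of the matrix, and the processing peptidase removes the targeting sequences of imported precursors there. Hepatocytes are rich in mitochondria and use all of these enzymes.

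The residue changed in these mice was located first, because the allele is named for its amino acid change. Whether sequence outside this codon also differs was not measured. Htra2 (gene 64704) lies on the minus strand of chromosome 6 at 83051266 to 83054571 of GRCm38.p6. In its transcript Htra2-201 the coding sequence has 458 codons, and codon 400 is the serine codon TCC in exon 7 of 8, at 83051753 to 83051755. The reference coding sequence around it, from the GENCODE annotation and read along the transcript over 2 exons between 83051616 and 83051785, is shown with codon 400 in capitals.
Htra2 codon 400: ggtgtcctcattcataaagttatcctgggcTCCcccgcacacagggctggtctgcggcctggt
The table gives read counts per gene and not bases, so neither the genotype at this codon nor the share of the S400D allele in heterozygotes was measured, and the level of Htra2 does not check the labels.

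Promoters of 300 bases (250 before to 50 after the start site, RefSeq, GRCm38.p6) were at hand for 8 of the 10 genes, all but Htra2 and Afg3l2. The promoter of Clpx, the member whose level varied most, is shown whole (chr9:65294010-65294309, plus strand), with a partial site of the nuclear respiratory factor NRF1 in capitals at positions -86 to -79 from the start site.
Clpx promoter: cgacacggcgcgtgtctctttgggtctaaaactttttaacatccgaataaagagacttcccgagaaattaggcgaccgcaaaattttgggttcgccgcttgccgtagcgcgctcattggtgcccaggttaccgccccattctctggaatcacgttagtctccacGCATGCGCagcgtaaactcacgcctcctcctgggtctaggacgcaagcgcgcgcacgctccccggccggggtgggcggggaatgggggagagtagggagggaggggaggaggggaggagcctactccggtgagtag
The ETS letters CCGGAAG, the core bound by ETS factors such as GABP, stood in 4 of the 8 promoters, on either strand, and in 8.86% of all 32851 promoters of that length. These 4 sites are shown with their flanks, because they are the only searched motif that more than 1 of the genes shared; the capitals mark the motif.
Parl: tttcttcgccCCGGAAGtgatttctag
Yme1l1: gaggcttgctCCGGAAGcactgtacct
Clpp: tgttgtagttCCGGAAGccaagccg
Pmpcb: gagtcatgacCCGGAAGtacatctcca
They lie at chr16:20302374-20302400 (minus strand), chr2:23156476-23156502, chr17:56990289-56990313 and chr5:21737134-21737160 (plus strand each), and Yme1l1 held 3 such sites.

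The remaining motifs were rarer among the 8 promoters. The NRF1 letters GCGCATGC was found in Clpx alone and in 2.71% of all promoters. Lonp1 held the E-box CACGTG, a site of clock and MYC factors (7.15% of all promoters), and the partial site TGACGTNA of CREB and ATF factors (2.93%). This pair is shown for Lonp1 (chr17:56626924-56626949 and chr17:56626893-56626920, minus strand), the only one of the 8 promoters with either motif.
Lonp1 E-box: cgagcgtcatCACGTGcgcaaacggg
Lonp1 CREB and ATF site: cgagcagagaTGACGTAAgtgcggtgcg
The ROR letters AGGTCA (16.3% of all promoters) and the D-box TTATGNAA (3.38%), letters read by clock factors, were in 0 of the 8 windows. Both strands were searched, and no motif overlapped another.

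Levels were compared between genes in TPM, which accounts for transcript length. Clpx, the unfoldase that feeds the ClpXP protease, and Pmpcb, the catalytic subunit of the processing peptidase, had the highest mean levels over the 10 libraries, 125 ± 85.2 and 110 ± 15.6 TPM (SD, n = 10). Lonp1 followed at 89.8 ± 13.7 TPM, Clpp at 63.2 ± 3.96, Afg3l2 at 43.1 ± 5.51, Parl at 37.6 ± 4.49, Yme1l1 at 27.6 ± 2.47 and Spg7 at 24.8 ± 2.58 TPM. Htra2 (14.1 ± 2.11 TPM) and Oma1 (12.6 ± 1.82 TPM) were the lowest. Of 10815 genes with a mean of at least 1 TPM, 91.4% lay below Clpx, 58.0% below Htra2 and 54.6% below Oma1. Some neighbours in this order were not cleanly apart: Clpx exceeded Pmpcb in 4 of 10 libraries, Yme1l1 exceeded Spg7 in 9 and Htra2 exceeded Oma1 in 7. Every other gene exceeded the next in 10 of 10 libraries. By median, Clpx (85.1 TPM) lay below Pmpcb (110 TPM) and Lonp1 (90.6 TPM). The mean of Clpx was 235 TPM in homozygous males but 68.4 TPM in wild-type males. In wild-type males it lay below the means of Pmpcb (107 TPM) and Lonp1 (82.4 TPM).

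**Figure D1:**
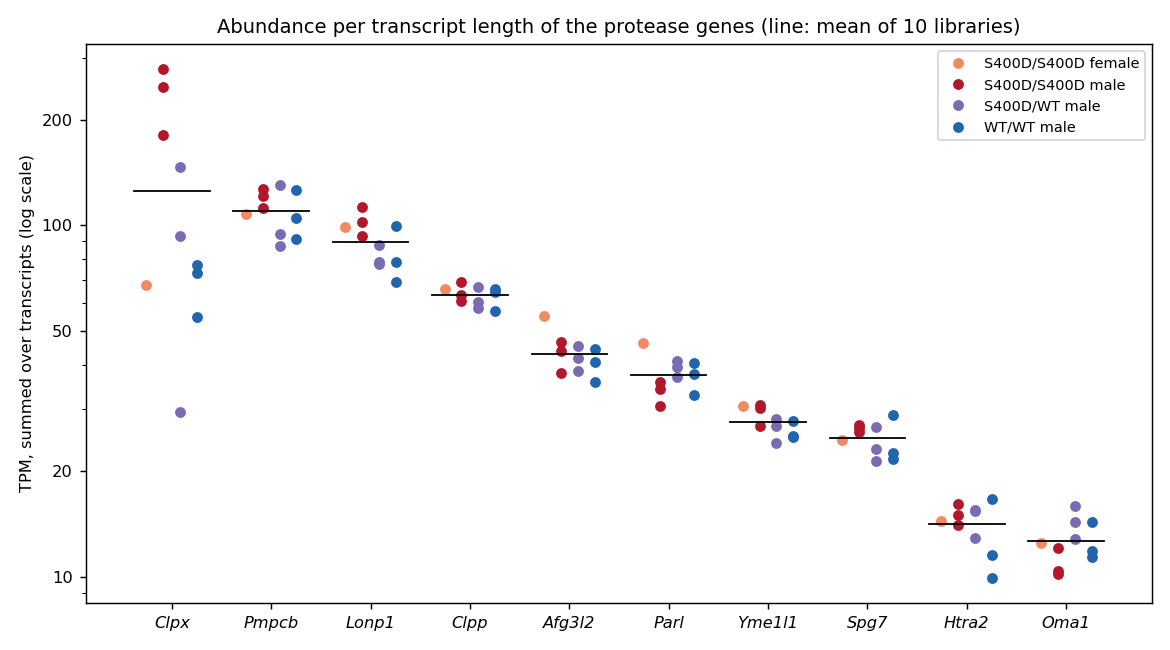
Level of the 10 genes in TPM (logarithmic axis), ordered by mean, with 1 point per library (n = 10) coloured by group and a bar at the mean. Clpx spans 29.4 to 278 TPM, across the range of Pmpcb (87.4 to 130 TPM), while Htra2 and Oma1 stay between 9.95 and 16.6 TPM.

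The genes differed in how steady they were. The SD of Yme1l1 over all libraries was 0.05 on the log2 CPM scale, smaller than that of all but 0.0926% of 12954 genes, and that of Clpp was 0.09, with 2.71% of genes steadier. At the other end Clpx had an SD of 0.96, and 96.7% of genes varied less. Htra2 was intermediate, with an SD of 0.16 and 24.5% of genes varying less.

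Htra2 itself was at 13.7 CPM in the homozygous female, at 14.6, 15.6 and 14.5 CPM in the homozygous males, at 15.2, 16.7 and 15.7 CPM in the heterozygous males and at 17.3, 12.3 and 12.6 CPM in the wild-type males. The homozygous and heterozygous males lay within the range of the wild-type males, whose first animal was the highest of all libraries and whose other 2 were the lowest. Behind these levels stood 191 to 295 reads per library. The log2 fold change was 0.09 in homozygous against wild-type males (SE 0.14, 95% interval -0.23 to 0.40, edgeR adjusted p = 0.792) and 0.18 in heterozygous against wild-type males (SE 0.14, interval -0.14 to 0.49, adjusted p = 0.972). Between homozygous and heterozygous males it was -0.09 (interval -0.40 to 0.22, adjusted p = 0.784). No difference in Htra2 RNA was detected, and these intervals give the sizes the 9 males leave possible. With each male left out in turn, the fold change against wild-type males ran from 0 to 0.27 in homozygous males. In heterozygous males it ran from 0.09 to 0.36. The upper ends came without wild-type male 1. There edgeR gave 0.27 in homozygous males (SE 0.11, unadjusted p = 0.0407, adjusted p = 0.26) and 0.36 in heterozygous males (unadjusted p = 0.011, adjusted p = 0.374).

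Markers of non-parenchymal cells also set wild-type male 1 apart from the other wild-type males. All 7 markers of sinusoidal endothelium had positive fold changes in homozygous and in heterozygous against wild-type males (medians 0.56 and 0.29), as had all 10 of Kupffer cells (0.64 and 0.32), and none of them was at 0 throughout. The summed level of the endothelial markers was 174 CPM in the homozygous female, 225, 224 and 224 CPM in homozygous males, 143, 186 and 212 CPM in heterozygous males and 236, 98.1 and 107 CPM in wild-type males, so wild-type male 1 was again high and the other wild-type males were low. The Kupffer cell marker Clec4f was at 95.2, 104 and 105 CPM in homozygous males, at 50.4, 93.1 and 103 CPM in heterozygous males and at 113, 50.2 and 40.1 CPM in wild-type males. The Kupffer cell markers summed to 426 to 457 CPM in homozygous males, 199 to 475 CPM in heterozygous males and 155 to 504 CPM in wild-type males. Erythroid markers summed to 161, 188 and 172 CPM in homozygous males and to 164, 318 and 1024 CPM in heterozygous males. In wild-type males they summed to 1129, 139 and 153 CPM. The endothelial marker Lyve1 was at 24.3, 10.5 and 9.76 CPM in homozygous males, at 4.91, 5.49 and 4.85 CPM in heterozygous males and at 4.93, 2.70 and 3.75 CPM in wild-type males, and it was the only one of the 7 endothelial markers whose homozygous and wild-type males did not overlap. Wild-type male 1 was the highest of the wild-type males for all 7 and the highest of all 9 males for 4 of them, as it was for Htra2. The part of these cells in the level of Htra2 was not tested.

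A single Htra2 transcript, NM_019752, was listed and took 100% of the gene's counts in every library. In a fit of 30251 transcripts its log2 fold change was 0.10 in homozygous against wild-type males (SE 0.16), 0.18 in heterozygous against wild-type males and -0.08 in homozygous against heterozygous males, each with an edgeR adjusted p of 1.0. Htra2 overlaps 2 genes on the opposite strand: of the 1725 bases of its transcript, 31.0% are shared with exons of Loxl3, a lysyl oxidase gene, and 2.96% with exons of Aup1, a gene of lipid droplets and the endoplasmic reticulum. No source used here says whether the counting was strand-specific, so reads of this stretch may be divided between the genes. Loxl3 was at 2.00, 2.40 and 2.17 CPM in homozygous males, at 2.03, 2.30 and 2.14 CPM in heterozygous males and at 2.40, 1.16 and 1.35 CPM in wild-type males, again with wild-type male 1 above the other 2 wild-type males. Aup1 lay between 122 and 156 CPM in all 10 libraries.

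The genes whose levels were most like Htra2 over the 10 libraries, by Pearson r of log2 CPM among 9238 genes, were Elk3 (r = 0.918), Ushbp1 (0.886), Tie1 (0.884), Dlc1 (0.876) and Marcksl1 (0.875). Elk3 encodes an ETS-family transcription factor, and Tie1 is a receptor of endothelial cells. None of the other proteases was near them: r with Htra2 was 0.35 for Oma1, 0.34 for Lonp1, 0.25 for Pmpcb, 0.23 for Spg7 and 0.22 for Clpx, and it ran from -0.32 to -0.01 for Clpp, Yme1l1, Afg3l2 and Parl. The libraries share groups and cell content, so r is a description of these 10 libraries.

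**Figure D2:**
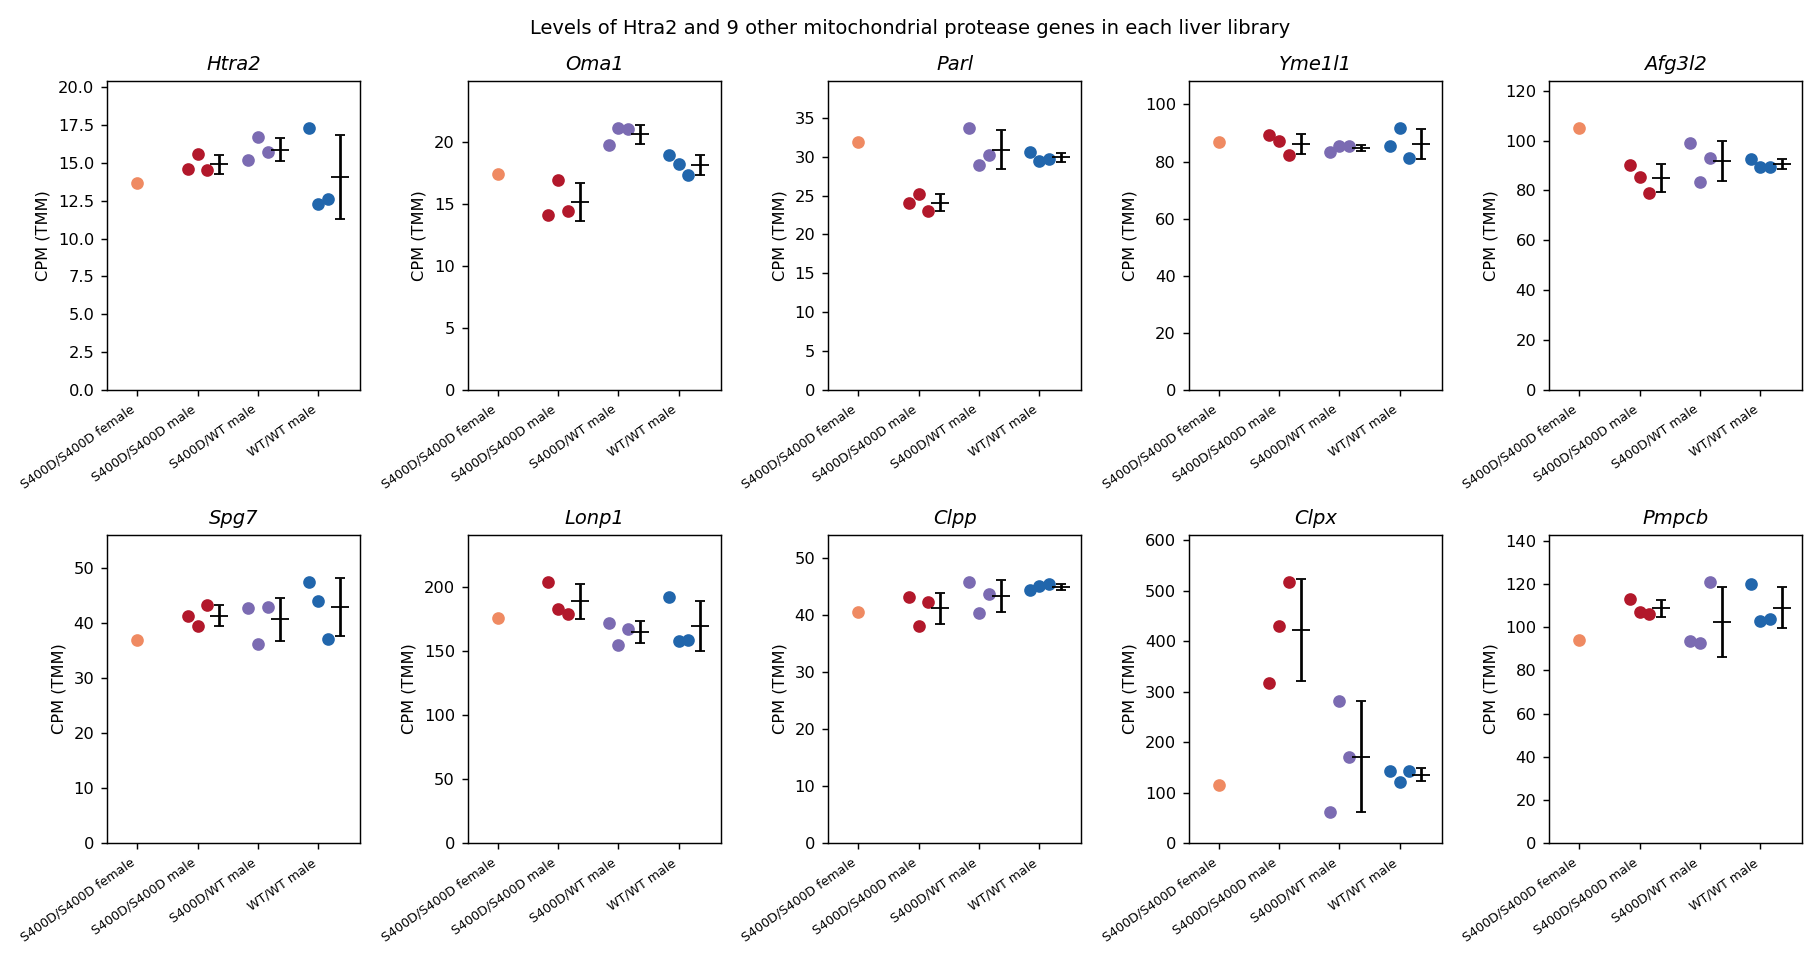
CPM (TMM-scaled) of each gene in every library, by group, with mean and SD beside each group of 3 males; axes start at 0 and differ between panels. Htra2 overlaps between the male genotypes, Parl is lower in the homozygous males (23.0 to 25.2 CPM) than in the other libraries (28.9 CPM and above), and Clpx is spread over 62.1 to 518 CPM.

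Comparing homozygous with wild-type males asks what is different when no wild-type HtrA2 is left. Clpx was 3.1-fold higher on average, and the membrane proteases Parl and Oma1 were lower, but 0 of the 10 genes passed an adjusted p of 0.05 in edgeR's quasi-likelihood test, as did 0% of all 12427 genes. At an unadjusted p under 0.05 there were 3 of the 10 genes, 1 higher and 2 lower, against 14.9% of all genes (6.82% higher and 8.08% lower). DESeq2 called 1 of the 10 genes, Clpx (adjusted p = 0.00878), and 307 genes in all. The groups did not overlap for 4 of the 10 genes (1 higher and 3 lower), against 20.8% of all genes (9.27% higher and 11.5% lower).

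Among the inner-membrane proteases, Parl, a rhomboid protease whose known substrates include PINK1 and PGAM5, was at 24.1, 25.2 and 23.0 CPM in homozygous males, against 30.6, 29.5 and 29.7 CPM in wild-type males. In CPM all homozygous values lay below all wild-type values, and the log2 fold change was -0.31 (SE 0.09, interval -0.51 to -0.11, unadjusted p = 0.00651, edgeR adjusted p = 0.216). Heterozygous males, at 33.7, 28.9 and 30.2 CPM, overlapped the wild type (0.05, SE 0.09, adjusted p = 0.979) and lay above the homozygotes. The difference of homozygous from heterozygous males was -0.36 (SE 0.09, unadjusted p = 0.0028, adjusted p = 0.122). In TPM the separation from wild type was not seen, with 34.2, 35.9 and 30.6 TPM in homozygous males against 40.6, 33.0 and 37.8 TPM in wild-type males, and limma on log2(TPM + 1) gave -0.14 (unadjusted p = 0.265). Parl has 1 listed transcript.

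Oma1, a stress-activated metalloprotease that cuts the fusion factor OPA1 and the signalling protein DELE1, showed the same order of groups. It was at 14.1, 16.9 and 14.4 CPM in homozygous males, at 19.7, 21.1 and 21.0 CPM in heterozygous males and at 18.9, 18.2 and 17.3 CPM in wild-type males. In CPM no 2 of these groups overlapped, with the homozygotes lowest and the heterozygotes highest. In TPM the wild-type males (14.3, 11.4 and 11.8 TPM) overlapped both the homozygous males (10.2, 12.1 and 10.4 TPM) and the heterozygous males (12.8, 14.3 and 15.9 TPM). The log2 fold change was -0.26 in homozygous against wild-type males (SE 0.10, interval -0.49 to -0.03, unadjusted p = 0.03, edgeR adjusted p = 0.291), 0.18 in heterozygous against wild-type males (SE 0.10, unadjusted p = 0.102, adjusted p = 0.972) and -0.45 in homozygous against heterozygous males (SE 0.10, interval -0.68 to -0.22, unadjusted p = 0.00167, adjusted p = 0.113). Of its 9 listed transcripts, NM_025909 held 62.0% to 79.8% of the gene's counts. Without single animals the difference from wild type lay between -0.35 and -0.21, and it was -0.18 by limma on log2(TPM + 1) (unadjusted p = 0.204).

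For the 3 AAA protease genes of the inner membrane the genotype groups lay close together. Yme1l1, the i-AAA protease that faces the intermembrane space, was at 89.3, 87.1 and 82.4 CPM in homozygous males, at 83.5, 85.5 and 85.4 CPM in heterozygous males and at 85.5, 91.7 and 81.1 CPM in wild-type males, and its homozygous to wild-type log2 fold change had an interval of -0.19 to 0.20. Afg3l2, a subunit of the m-AAA protease that faces the matrix, was at 90.2, 85.3 and 79.0 CPM in homozygous males, at 99.2, 83.4 and 93.0 CPM in heterozygous males and at 92.7, 89.5 and 89.3 CPM in wild-type males (interval -0.31 to 0.13). These groups overlapped for both genes. Its partner subunit Spg7 (paraplegin) was at 41.3, 39.5 and 43.3 CPM in homozygous males, at 42.8, 36.2 and 43.0 CPM in heterozygous males and at 47.5, 44.0 and 37.1 CPM in wild-type males (interval -0.30 to 0.21). The TPM ratio of Afg3l2 to Spg7 was 2.26 in the homozygous female, the highest of all libraries, 1.43 to 1.72 in homozygous males, 1.71 to 1.81 in heterozygous males and 1.54 to 1.89 in wild-type males.

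In the matrix, Clpx stood out. It was at 116 CPM in the homozygous female, at 317, 431 and 518 CPM in the homozygous males, at 62.1, 283 and 171 CPM in the heterozygous males and at 144, 122 and 143 CPM in the wild-type males. Every homozygous male exceeded every other library, and the heterozygous males ranged 4.57-fold around the wild type. The homozygous female lay below all wild-type males in CPM. In TPM, at 67.6, the female was within the range of the wild-type males (54.9 to 77.3 TPM). The log2 fold change was 1.63 in homozygous against wild-type males (SE 0.44, interval 0.63 to 2.63, unadjusted p = 0.00485, edgeR adjusted p = 0.207) and 1.29 in homozygous against heterozygous males (SE 0.44, interval 0.30 to 2.28, unadjusted p = 0.0158, adjusted p = 0.196). In heterozygous against wild-type males it was 0.34 (SE 0.43, interval -0.64 to 1.31, adjusted p = 0.972), and it was -0.23 without heterozygous male 2 and 0.74 without heterozygous male 1 (unadjusted p = 0.0197, adjusted p = 0.862). Both Clpx transcripts kept a similar share: NM_011802 held 83.7% to 89.4% of the gene's counts in every library and NM_001044389 the rest.

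Its partner Clpp, the peptidase that degrades what Clpx unfolds, stayed between 38.1 and 45.8 CPM. It was at 43.2, 38.1 and 42.2 CPM in homozygous males, at 45.8, 40.3 and 43.7 CPM in heterozygous males and at 44.3, 45.1 and 45.4 CPM in wild-type males (log2 fold change -0.12 in homozygous against wild-type males, SE 0.09, edgeR adjusted p = 0.522). The homozygous values lay just below the wild-type values in CPM, while on the log2(TPM + 1) scale the difference was 0.04. The TPM ratio of Clpx to Clpp was 1.03 in the homozygous female, 2.62, 4.05 and 4.40 in homozygous males, 0.487, 2.53 and 1.40 in heterozygous males and 1.17, 0.964 and 1.13 in wild-type males.

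The Clpx level went along with 2 genes of the circadian clock. Arntl, which encodes the activator BMAL1, was at 1.59 CPM in the homozygous female, at 17.4, 26.1 and 38.1 CPM in homozygous males, at 1.17, 31.5 and 2.59 CPM in heterozygous males and at 2.64, 2.45 and 4.25 CPM in wild-type males. Dbp, an output gene of the clock that peaks when Arntl is low, was at 205 CPM in the homozygous female, at 4.63, 12.9 and 1.27 CPM in homozygous males, at 247, 6.02 and 105 CPM in heterozygous males and at 128, 148 and 158 CPM in wild-type males. The 4 libraries with high Arntl and low Dbp, those of the homozygous males and of heterozygous male 2, were the 4 with the most Clpx. With the log2 ratio of Arntl to Dbp as a covariate, an alternative chosen after seeing the data, the Clpx difference was 0.25 in homozygous against wild-type males (SE 0.44, unadjusted p = 0.574, edgeR adjusted p = 0.988), -0.19 in heterozygous against wild-type males and 0.44 in homozygous against heterozygous males (adjusted p = 0.761). In the same fit Parl differed by -0.15 and Oma1 by -0.27 between homozygous and wild-type males, neither with an unadjusted p under 0.05 in edgeR. The log2 ratio ran from -7.73 to 2.39 within heterozygous males, 1.02 to 4.91 within homozygous males and -5.92 to -5.21 within wild-type males. The covariate therefore drew mostly on the heterozygous males, of which only male 2 had a positive log2 ratio. All homozygous males had a positive log2 ratio and all wild-type males a negative one, so genotype and clock state cannot be told apart between those 2 groups.

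**Figure D3:**
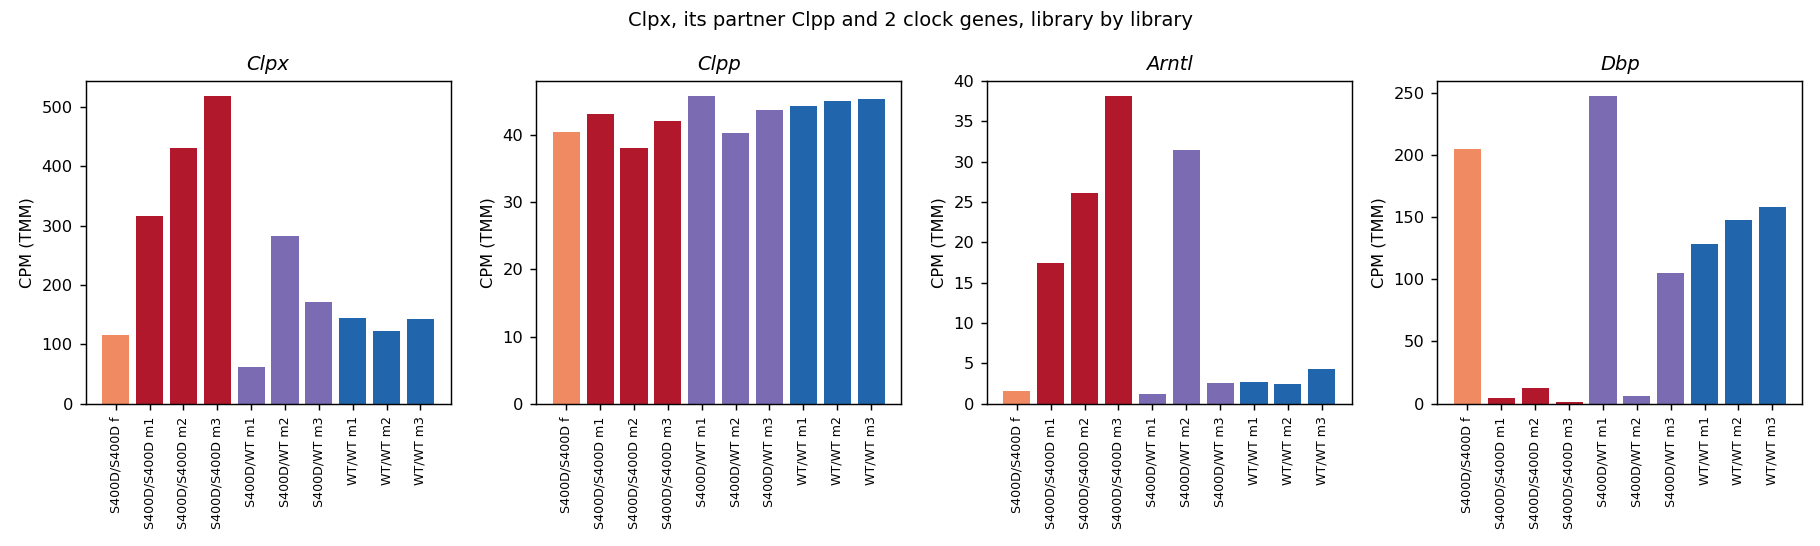
CPM (TMM-scaled) of Clpx, its partner Clpp and the clock genes Arntl and Dbp, with 1 bar per library (m, male; f, female), coloured by group, on axes that start at 0. The 4 libraries with high Arntl (17.4 to 38.1 CPM) have 283 to 518 CPM of Clpx and the other 6 have 62.1 to 171 CPM, while Clpp lies between 38.1 and 45.8 CPM in all 10.

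The 2 remaining matrix enzymes differed less. Lonp1, an ATP-dependent protease that also binds mitochondrial DNA, was at 204, 183 and 179 CPM in homozygous males, at 172, 155 and 167 CPM in heterozygous males and at 192, 158 and 159 CPM in wild-type males. The homozygotes exceeded all heterozygotes (log2 fold change 0.20, SE 0.11, unadjusted p = 0.114, edgeR adjusted p = 0.404) and overlapped the wild type (0.15, interval -0.10 to 0.41, adjusted p = 0.536). Pmpcb was at 113, 107 and 106 CPM in homozygous males, at 93.8, 92.6 and 121 CPM in heterozygous males and at 120, 103 and 104 CPM in wild-type males, with an interval of -0.28 to 0.28 for homozygous against wild-type males.

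In heterozygous against wild-type males, which asks what 1 S400D allele does, the 10 fold changes had a median of 0.00 and 0 of the genes had an unadjusted p under 0.05, against 4.19% of all genes. That background of 521 genes ran from 259 (without wild-type male 3) to 1287 (without wild-type male 1) when single animals were left out, and the count among the 10 genes from 0 to 1 (Clpx without heterozygous male 1, Htra2 without wild-type male 1). By adjusted p, edgeR called 0 of the 10 genes and 0% of all genes, and DESeq2 called 0 of the 10 genes and 7 genes in all. Oma1 was the 1 gene whose groups did not overlap, against 10.4% of all genes (4.56% higher). In homozygous against heterozygous males 3 of the 10 genes had an unadjusted p under 0.05 (Clpx higher, Oma1 and Parl lower), against 17.2% of all genes (8.25% higher and 8.92% lower). Groups did not overlap for 4 of the 10, with Clpx and Lonp1 higher and Oma1 and Parl lower, against 22.4% of all genes (10.7% higher and 11.7% lower). By adjusted p edgeR called 0 of the 10 genes and 0% of all genes. DESeq2 called Oma1 (adjusted p = 0.0203), Parl (0.0474) and Clpx (0.0413), and 544 genes in all. These comparisons share groups of animals with each other and with that of homozygous and wild-type males.

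**Figure D4:**
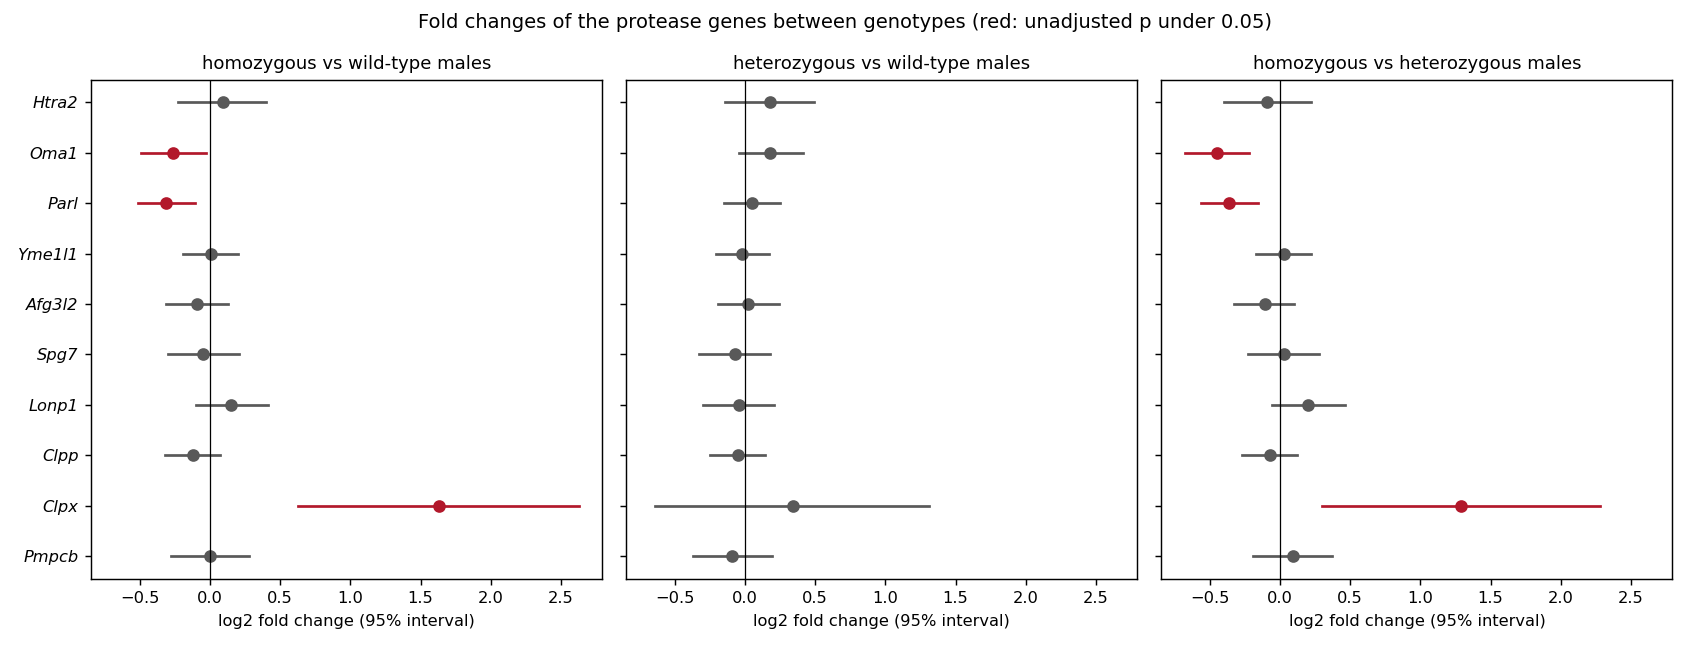
Log2 fold change of each gene with its 95% interval in the 3 comparisons between male genotypes (edgeR, 3 animals per group). The intervals of Clpx and of Oma1 and Parl leave out 0 for homozygous males against either other genotype, while those of Htra2, Yme1l1, Afg3l2, Spg7, Lonp1, Clpp and Pmpcb include it in all 3 comparisons.

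The homozygous female was compared with the males of that genotype (n = 3) by fitting the 10 libraries together, which assumes that 1 female varies as the males do; sex cannot be told apart from that 1 animal. Parl was at 31.9 CPM in the female, against 24.1, 25.2 and 23.0 CPM in homozygous males (log2 fold change 0.40, SE 0.12). In CPM the female so lay among the wild-type and heterozygous males. In TPM the female, at 46.2, was above the wild-type males (33.0 to 40.6 TPM) and the heterozygous males (37.1 to 41.0 TPM). Afg3l2 was at 105 CPM in the female, above the 79.0 to 90.2 CPM of the homozygous males (0.31, SE 0.14, unadjusted p = 0.0486, adjusted p = 0.481). Clpx was at 116 CPM in the female, below the 317 to 518 CPM of the homozygous males (-1.86, SE 0.69, unadjusted p = 0.0231, adjusted p = 0.398). The female's clock genes stood on the side of the wild-type males, with a log2 ratio of Arntl to Dbp of -7.01. The other 7 genes, Htra2 among them (-0.12, SE 0.20, adjusted p = 0.894), had unadjusted p-values of 0.18 or more. edgeR and DESeq2 each called 0 of the 10 genes by adjusted p, against edgeR calls of 0.0772% of 12954 genes, and 3 had an unadjusted p under 0.05 (2 higher and 1 lower), against 10.3% of all genes (5.21% higher and 5.13% lower).

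Genes that work with these proteases were followed as 5 lists, and in edgeR 0 of their 58 tested genes passed an adjusted p of 0.05 in any comparison. The list of mitochondrial import, the machinery that brings precursors to the processing peptidase, held the most uniform values: in homozygous against wild-type males all 16 genes had negative fold changes (median -0.18), against a median of 0.00 and 50.7% positive over all genes. At an unadjusted p under 0.05 there were 5 of the 16, all lower, against 8.08% of all genes lower at that p. Dnajc19, a subunit of the import motor, was at 22.6, 24.7 and 25.1 CPM in homozygous males, against 31.5, 33.1 and 32.4 CPM in wild-type males (-0.42, SE 0.11, adjusted p = 0.194). The channel subunit Timm17a was at 18.8, 20.4 and 15.2 CPM in homozygous males, against 22.1, 25.6 and 21.7 CPM in wild-type males (-0.35, adjusted p = 0.278). These groups did not overlap for either gene. Against heterozygous males the 16 fold changes were negative too (median -0.21; 5 of 16 lower at an unadjusted p under 0.05, against 8.92% of all genes, led by Tomm5, -0.42, adjusted p = 0.144), while in heterozygous against wild-type males 9 were positive and 7 negative. In the homozygous female against the homozygous males 15 of 16 were positive (median 0.18). Heterozygous male 2, with high Arntl and low Dbp, was the lowest heterozygote for 14 of the 16 genes. Examples were Dnajc19 (32.6, 26.5 and 33.5 CPM in heterozygous males 1 to 3) and Tomm5 (19.1, 16.2 and 19.4 CPM). This was not particular to import and rests on a single library. The same animal was the lowest heterozygote for 10 of 12 protease partners, 8 of 10 chaperones, 6 of 9 other proteases and 5 of 11 stress response factors. The part of clock state in the import genes was not tested. These signs depend on the scaling. On the log2(TPM + 1) scale, a look at the lists added after seeing the data, the median of all genes was itself shifted, by 0.13 in homozygous against wild-type males and by 0.11 in homozygous against heterozygous males. There 9 of the 16 import genes were negative in homozygous against wild-type males (median -0.02) and 15 of 16 lay below the median of all genes. All 16 did so in homozygous against heterozygous males. With library size alone, 15 of 16 were negative in homozygous against wild-type males and all 16 against heterozygous males. In heterozygous against wild-type males all 16 were positive with library size alone and 12 on the log2(TPM + 1) scale. On each of these scales 6 of the 16 lay below the median of all genes in that comparison.

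Of the 9 other mitochondrial proteases and peptidases, 7 had negative fold changes in homozygous against wild-type males (median -0.11; 4 of 9 negative and a median of 0.02 on the log2(TPM + 1) scale) and 2 of the 9 an unadjusted p under 0.05, both lower, against 8.08% of all genes lower at that p. On the log2(TPM + 1) scale 6 of the 9 lay below the median of all genes. Immp2l, a subunit of the inner-membrane peptidase that trims sorted precursors, was at 8.74, 16.6 and 19.3 CPM in homozygous males, against 25.7, 25.4 and 27.1 CPM in wild-type males (-0.80, SE 0.24, edgeR adjusted p = 0.227). Homozygous male 1 was the lowest of all libraries for Immp2l. Atp23, a metalloprotease known from yeast as a processing enzyme of an ATP synthase subunit, was at 2.23, 3.28 and 2.95 CPM in homozygous males, against 3.17, 4.76 and 5.11 CPM in wild-type males (-0.62, adjusted p = 0.283). Among 12 partners, regulators and substrates of the proteases, 10 fold changes were negative (median -0.12; on the log2(TPM + 1) scale 3 of 12 were negative, with a median of 0.04, and 10 of 12 lay below the median of all genes). The Oma1 and Yme1l1 substrate Opa1, a fusion factor of the inner membrane, was at 99.5, 91.4 and 91.1 CPM in homozygous males, against 84.4, 81.0 and 81.0 CPM in wild-type males (0.20, adjusted p = 0.314). Stoml2, a scaffold protein that assembles with Parl and Yme1l1, was at 46.1, 44.8 and 42.4 CPM in homozygous males, against 51.8, 48.5 and 51.1 CPM in wild-type males (-0.18, adjusted p = 0.333).

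The 10 mitochondrial chaperones were mixed in homozygous against wild-type males, with 4 positive and 6 negative fold changes (median -0.11; on the log2(TPM + 1) scale 7 were positive, with a median of 0.06, and 6 of 10 lay below the median of all genes). Hspe1, the co-chaperonin of HSP60, was at 74.4, 95 and 89 CPM in homozygous males, against 106, 119 and 111 CPM in wild-type males (-0.38, SE 0.11, edgeR adjusted p = 0.227). Grpel2, an exchange factor of the mitochondrial HSP70, was at 62.3, 55.6 and 42.2 CPM in homozygous males, against 38.5, 31.7 and 45.1 CPM in wild-type males (0.48, adjusted p = 0.272), and these groups overlapped. Against heterozygous males Grpel2 differed by 0.61 (adjusted p = 0.151) and Bcs1l, a chaperone of respiratory complex III, by -0.34 (adjusted p = 0.196).

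Among 11 factors and reporters of the mitochondrial stress response, 6 fold changes were positive and 5 negative in homozygous against wild-type males (median 0.04). On the log2(TPM + 1) scale 9 were positive and 2 negative. Their median there was 0.16, against 0.13 over all genes, and 4 of 11 lay below the median of all genes. Gdf15, a stress-induced secreted factor, was at 2.23, 6.21 and 7.05 CPM in homozygous males, against 2.29, 1.22 and 1.66 CPM in wild-type males (1.57, SE 0.42, edgeR adjusted p = 0.206). Homozygous male 1 was within the wild-type range for Gdf15 and the other 2 homozygous males were above it. Heterozygous males, at 3.13, 3.25 and 3.89 CPM, were all above that range (0.98, SE 0.42, edgeR unadjusted p = 0.0427, adjusted p = 0.972). The homozygous female was at 2.89 CPM. Chac1, a glutathione-degrading enzyme induced by ATF4, was at 8.91, 5.10 and 8.31 CPM in homozygous males, at 1.23, 1.77 and 3.21 CPM in heterozygous males and at 4.75, 5.08 and 3.32 CPM in wild-type males. Its log2 fold change was 1.84 in homozygous against heterozygous males (SE 0.36, unadjusted p = 0.000627, adjusted p = 0.104) and -1.07 in heterozygous against wild-type males (adjusted p = 0.972). Fgf21, a hepatic hormone of fasting and stress, stayed under 1.5 CPM in all libraries and differed by 2.73 in heterozygous against wild-type males (SE 0.73, unadjusted p = 0.00446, adjusted p = 0.972). Atf4, the transcription factor upstream of Chac1, differed by -0.43 in homozygous against heterozygous males (adjusted p = 0.198).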

How the data were processed

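Per the labels' protocols, liver RNA was purified on oligo(dT) beads, fragmented and primed with random hexamers. The authors deposited, per transcript and sample, expected counts (estimated reads, not normalised), FPKM (scaled by the authors to length and library total) and TPM (scaled by the authors to a fixed sum). HISAT, Bowtie2 and GRCm38.p6 are named in the submitters' processing notes, and no source used here names the counting program.

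The 77712 transcripts were summed to 19271 genes by gene identifier (19214 matched RefSeq, 57 did not) and rounded; 94.5% of nonzero sums lay within 0.05 of a whole number. FPKM served only to repeat the order of levels. Differences were tested in R 4.3.3 by edgeR 4.0.16 (quasi-likelihood, TMM, default filter on low counts) with p-values adjusted over all genes by Benjamini-Hochberg and a threshold of 0.05. The 9 males were fitted together (12427 genes). The female entered a fit of all 10 libraries (12954 genes). Htra2's transcript was tested among all transcripts. CPM values use TMM factors over all 10 libraries. Fold changes are log2. The code was tested on simulated counts.

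Alternatives were DESeq2 1.42.0, its size factors, library size alone, no filter, limma 3.58.1 on log2(TPM + 1) or log2(TPM + 0.1), only the compared groups, a replicate block and omission of each animal. A clock covariate and the lists on other scales were chosen after seeing the data.

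Named were the 10 genes, the 2 genes per list and comparison with the smallest p where space allowed, the 5 genes most like Htra2, Arntl, Dbp, Clec4f and Lyve1. Loxl3 and Aup1 were named for their overlap with Htra2. The genes and lists were chosen with earlier results of these data known.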

Additional observations from a re-analysis of the deposited data

How the results depend on the processing

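Of 10 genes under the alternatives tried, 167 of 180 values kept direction and side of the threshold in homozygous against wild-type males, 168 of 180 in heterozygous against wild-type males, 168 of 180 in homozygous against heterozygous males and 155 of 160 in the female against the homozygous males. This tally does not measure size. None of the 10 was called in the main fits, and a much smaller value of the same sign counts as kept. Clpx in homozygous against wild-type males, 1.63 in the main fit and 0.25 with the clock covariate, was counted so. The fold changes of Clpx, Parl and Oma1 in homozygous males against either other genotype kept their sign under every alternative run. DESeq2 called 307, 7, 544 and 104 genes in these 4 comparisons, and 1, 0, 3 and 0 of the 10 genes, against 0, 0, 0 and 10 genes and none of the 10 by edgeR; the cause was not tested. limma on log2(TPM + 1) called 16 genes for the female. Without single animals, 0 to 18 genes were called in homozygous against wild-type males (18 without wild-type male 1, 2 without homozygous male 2) and 0 to 6 in homozygous against heterozygous males (6 without homozygous male 2). With the clock ratio as covariate, 0 of the 10 genes in homozygous against wild-type males and 1 in homozygous against heterozygous males had an unadjusted p under 0.05, and with limma on TPM 1 did in homozygous against wild-type males. The genes at that p in homozygous against wild-type males numbered 1852, and 1121 to 2198 without single animals (1121 without wild-type male 2). The order of levels was the same in FPKM.

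Signs that changed belonged to fold changes near 0, apart from Clpx in heterozygous against wild-type males. On either TPM scale they were 0.08 for Afg3l2, 0.13 for Spg7 and 0.04 for Clpp in homozygous against wild-type males, 0.02 for Yme1l1 in heterozygous against wild-type males, 0.04 for Htra2, 0.02 for Afg3l2 and 0.06 for Clpp in homozygous against heterozygous males, and 0.04 for Clpp in the female; on this scale the median of all genes was shifted as well. With library size alone they were 0.01 for Spg7 in homozygous against wild-type males, 0.06 for Yme1l1, 0.03 for Lonp1 and 0.03 for Clpp in heterozygous against wild-type males, and 0.03 for Clpp in the female. With the clock covariate they were 0.11 for Afg3l2 and 0.11 for Spg7 in homozygous against wild-type males, -0.19 for Clpx in heterozygous against wild-type males and 0.04 for Afg3l2 in homozygous against heterozygous males. Without single animals the ranges were -0.02 to 0.05 for Yme1l1 and -0.13 to 0.03 for Spg7 in homozygous against wild-type males; -0.02 to 0.09 for Parl, -0.06 to 0.03 for Yme1l1, -0.03 to 0.09 for Afg3l2, -0.16 to 0.01 for Spg7, -0.09 to 0.06 for Lonp1 and -0.23 to 0.74 for Clpx in heterozygous against wild-type males; -0.05 to 0.07 for Spg7 in homozygous against heterozygous males; and -0.02 to 0.03 for Yme1l1 and -0.08 to 0.01 for Clpp in the female. The cause was not tested.

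No pairing of the animals by replicate number was seen. Correlations of deviations ran from -0.42 to 0.18 between animals with the same number and from -0.33 to 0.42 between animals with different numbers. With so few animals these values cannot show that the numbers carry no pairing. With the number as a replicate block 0 genes were called in any comparison between male genotypes, the Clpx difference was 1.56 in homozygous and 0.14 in heterozygous against wild-type males, and 3, 0 and 3 of the 10 genes had an unadjusted p under 0.05, as without it. Htra2 rests on 191 to 295 reads per library, which limits its precision.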
